A study of Glycine max with 36 samples.

Results

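Subjective dawn was set against the evening 12 h later in leaves of soybean (Glycine max, cultivar Williams 82) that no longer saw a change of light. The 12 libraries of this comparison, out of 36 in the series, are the 6 sampled at zeitgeber time ZT0 or ZT24 (dawn) and the 6 sampled at ZT12 or ZT36 (evening), with 3 replicates at each of the 4 times. All came from unifoliolate leaves, the simple leaves that open just after the cotyledons. For 9 days the seedlings had days of 16 h light and nights of 8 h at 28 °C. Constant conditions began on day 10, and sampling every 4 h began on day 11 and lasted 44 h. Each replicate pooled leaves of 3 seedlings. The labels do not say whether the constant conditions were light or darkness, and they give 1 age for all libraries although ZT24 and ZT36 fall on the second day of sampling. No plant carried a transgene or mutation named in the labels. If ZT0 marks the former lights-on, ZT12 comes 4 h before the former lights-off, so ZT12 and ZT36 are called evening here and not dusk.

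The plant circadian clock, worked out mainly in Arabidopsis, is a loop of transcription factors that repress one another. A group of proteins made around dawn holds down genes of the evening, and proteins made through the day and evening hold down the dawn genes. Many output genes of leaves, among them genes of light harvesting, starch turnover and growth, follow one of these arms, and in constant conditions the alternation goes on without a signal from light. The deposited table gives soybean gene identifiers and pairs none of them with a name. None of the 47011 identifiers (0) matched the reference table of 59048 genes, so no clock or pathway gene is named below, and at most 2 identifiers per direction are printed for each comparison.

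Values are FPKM, fragments scaled by gene length and by the mapped total, so each is a share of its library. Differences are evening minus dawn on the log2(FPKM + 1) scale, with a term for the day, and they understate the change of genes with low values. A difference of 1 is 2-fold. The moderated test of limma was used with a Benjamini-Hochberg adjusted p under 0.05 over the 27449 genes whose mean was at least 1 FPKM over the 36 libraries. Absolute depth is unknown. Steps in the low values gave relative depths of 0.911 to 1.108 times the median library for dawn and 0.895 to 1.063 for evening, so the ranges overlapped. Pearson's r of log2 values across genes ran from 0.9814 to 0.9916 between replicates, and 1 principal component with 77.5% of the variance separated the 6 dawn from the 6 evening libraries.

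The level of the typical gene itself differed between dawn and evening. In the dawn libraries the median tested gene stood at 2.55, 2.58 and 2.53 on the log2 scale at ZT0 and at 2.57, 2.66 and 2.47 at ZT24. In the evening libraries it stood at 3.04, 2.95 and 2.99 at ZT12 and at 2.98, 2.96 and 2.91 at ZT36. Every evening library was above every dawn library. The evening level was higher by 0.41 (two-sided exact permutation test within days, p = 0.005, the smallest p the 400 arrangements allow). The 20 genes most abundant on average across the 36 libraries went the other way. At ZT0 19.9% ± 0.569 (SD, n = 3) of all FPKM fell on them, and 18.7% ± 1.38 at ZT24, against 12.3% ± 1.32 at ZT12 and 12.2% ± 1.39 at ZT36. Their share was lower in the evening by 7.06 percentage points (p = 0.005 in the same exact test). Of these 20 genes, 10 were called higher at dawn and 3 higher in the evening by the test below, and 16 and 1 after the rescaling below. The shares of all tested genes called were 15.3% for dawn and 67.4% for evening, and 32.2% and 32.3% after rescaling. Fewer transcripts of the abundant genes and more of the others cannot be told apart in such shares, nor can fewer cells of a type and less RNA per cell in leaf samples.

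**Figure D1:**
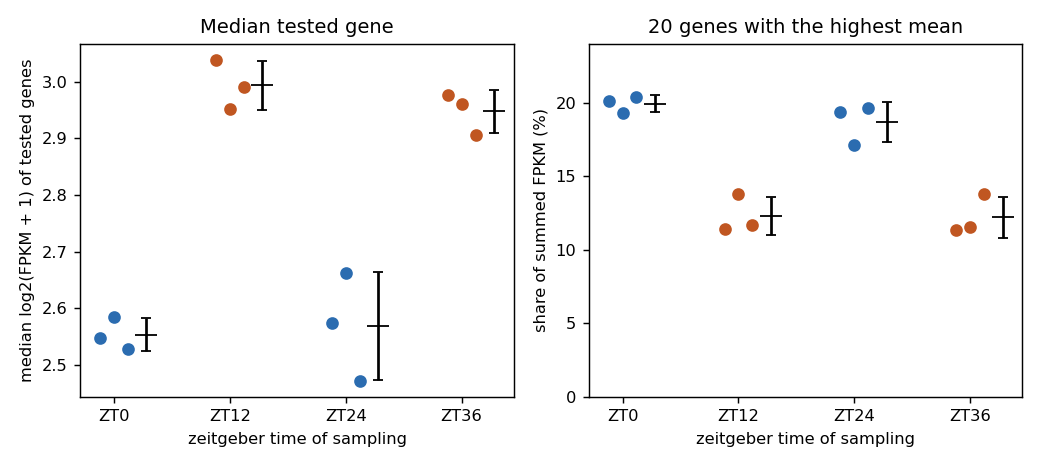
Left, the median log2(FPKM + 1) of the 27449 tested genes in each library. Right, the percentage of summed FPKM held by the 20 genes with the highest mean. Points are libraries, dawn in blue and evening in orange, and bars are the mean ± SD of 3. In the left panel all 6 evening libraries lie above all 6 dawn libraries, and in the right panel they lie below.

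For this reason counts are given on 2 scales, as deposited and rescaled. Median-ratio rescaling takes 1 factor per library, the median over genes of their ratio to a geometric mean library, and so reports a gene relative to the median gene. The rescaling factors were 0.789 to 0.921 for dawn and 1.129 to 1.267 for evening libraries. The median difference over tested genes was 0.40 as deposited and 0.01 after rescaling.

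Dawn and evening leaves differed in the level of most genes. As deposited, 4202 genes (15.3%) were higher at dawn and 18509 (67.4%) higher in the evening. After rescaling the numbers were nearly even, with 8849 genes (32.2%) higher at dawn and 8877 (32.3%) higher in the evening. Dawn calls were thus 18.5% of all calls on the first scale and 49.92% on the second. All 4202 dawn genes were also dawn genes after rescaling, and all 8877 evening genes of the rescaled data were evening genes as deposited. The scale decided the rest. A group of 8256 genes was called higher in the evening only as deposited (median difference 0.42 as deposited and 0.03 after rescaling). A further 3271 were called higher at dawn only after rescaling (medians -0.01 and -0.41), and 1376 changed direction, with medians of 0.23 and -0.21. No gene whose direction changed differed by more than 0.373 on either scale. Only 1467 genes were called on neither scale.

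**Figure D2:**
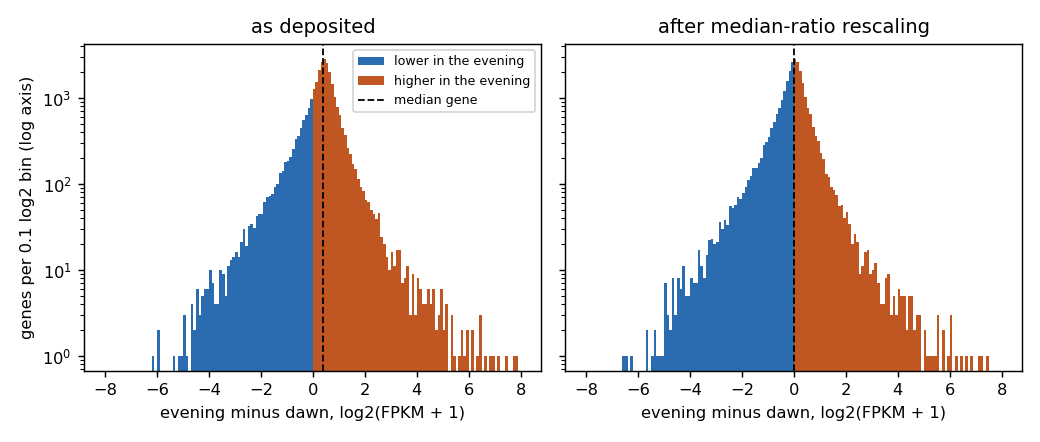
Histograms of the fitted evening minus dawn difference of the 27449 tested genes in bins of 0.1 on the log2(FPKM + 1) scale, with a logarithmic vertical axis. Orange bars are genes higher and blue bars genes lower in the evening, and the dashed line is the median gene, at 0.40 as deposited and 0.01 after rescaling.

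Large differences were less common. At 2-fold or more, 1378 genes (5.02%) were higher at dawn and 3090 (11.3%) higher in the evening as deposited, against 2332 (8.5%) and 1399 (5.1%) after rescaling. The larger group at this size was therefore the evening group on one scale and the dawn group on the other. At 4-fold, 413 genes (1.5%) were higher at dawn and 555 (2.02%) in the evening as deposited, and 666 (2.43%) and 332 (1.21%) after rescaling. At 8-fold the counts were 129 (0.47%) and 180 (0.656%), then 207 (0.754%) and 123 (0.448%). At 16-fold there were 42 dawn and 78 evening genes as deposited, and 69 and 58 after rescaling. At 32-fold, the highest cutoff counted, the evening had more genes on both scales. There were 6 dawn and 29 evening genes as deposited, and 11 and 22 after rescaling. The pseudocount moved the 2-fold counts too, to 4650 evening genes with 0.1 FPKM in place of 1 and to 842 dawn and 1221 evening genes with 5 FPKM.

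Genes that pass the test and 2-fold on both scales are called the dawn set (1378 genes) and the evening set (1399 genes) from here on. The 6 dawn and 6 evening libraries did not overlap for 1261 genes of the dawn set and 1368 of the evening set as deposited. Over all tested genes, 9.15% were higher at dawn and 48.8% higher in the evening without overlap, and 19.7% and 17.9% after rescaling. The sets were chosen by this contrast, so these shares only describe them. The dawn set had a median difference of -1.57 (quartiles -2.15 and -1.23) and the evening set of 1.83 (1.57 and 2.36). The median gene of the dawn set was the more abundant, with a mean of 14.4 FPKM over the series against 8.94 FPKM in the evening set.

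Both sets were chosen by the contrast of dawn and evening, so the direction in which their shares changed was given by the choice. The dawn set held a large part of the summed FPKM at dawn. Its share of summed FPKM was 24.2% ± 0.363 at ZT0 (SD, n = 3) and 23.4% ± 0.648 at ZT24, and 6.16% ± 0.267 at ZT12 and 6.52% ± 0.419 at ZT36. The evening set, of nearly equal size, held 10.4% ± 0.284 at ZT12 and 10.5% ± 0.826 at ZT36, and 1.3% ± 0.0488 at ZT0 and 1.66% ± 0.102 at ZT24. FPKM lost from dawn to evening was concentrated in few genes. The 10 largest falls made up 32.5% and the 100 largest 62.2% of the summed fall of 190625 FPKM. The 10 largest rises made up 12.1% and the 100 largest 28.7% of the summed rise of 174726 FPKM.

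As deposited, the balance between dawn and evening changed mainly above 100 FPKM. Among the 18042 genes with a mean of 1 to 10 FPKM, 12.2% were called higher at dawn and 68.6% higher in the evening. The 8612 genes with 10 to 100 FPKM were close to this, at 18.9% and 68.0%. Among the 706 genes with 100 to 1000 FPKM these shares were 46.5% and 36.1%, and among the 89 genes with 1000 FPKM or more they were 47.2% and 21.3%. Rescaling raised the dawn share in each class, to 26.9%, 39.8%, 70.3% and 77.5% from the lowest to the highest. The median difference of the 89 most abundant genes was -0.15 as deposited and -0.64 after rescaling, against 0.41 and 0.04 in the class of 1 to 10 FPKM. In the class of 10 to 100 FPKM it was 0.41 and -0.05. Thus the abundant genes lay on the dawn side of the median gene on both scales. Abundant genes set the totals by which FPKM are scaled, so these classes and the shift of the median gene are not independent.

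The largest dawn difference by the naming rule was that of GLYMA06G07070. It stood at 217, 223 and 229 FPKM in the 3 libraries of ZT0 and at 197, 159 and 127 at ZT24. In the evening it was at 1.23, 1.51 and 2.23 FPKM at ZT12 and at 1.40, 1.11 and 2.93 at ZT36. All dawn libraries were far above all evening libraries, and the mean at dawn was 110.5 times that in the evening. Its difference was -6.14 ± 0.17 (SE, limma adjusted p = 2.67e-12) and -6.52 ± 0.17 after rescaling. Between the compared times it passed through 71.3 ± 5.26 FPKM at ZT4 and 17.8 ± 4.07 at ZT8 (SD, n = 3), and it was back at 168 ± 12.3 by ZT20.

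GLYMA03G42260 came next. It stood at 470.2, 447 and 484 FPKM at ZT0 and at 436, 463 and 457 at ZT24, so at dawn the libraries of the days overlapped. In the evening it was at 2.32, 1.53 and 3.09 FPKM at ZT12 but at 15.1, 14.7 and 15.6 at ZT36. The evening libraries of the second day thus lay above those of the first without overlap, while all stayed far below dawn. Its difference was -5.99 ± 0.34 (SE, limma adjusted p = 3.08e-09) and -6.42 ± 0.34 after rescaling.

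The largest evening difference was that of GLYMA19G27530. It stood at 5.64, 4.68 and 6.95 FPKM at ZT0 and at 17.9, 21.0 and 19.4 at ZT24, and it reached 2439, 2484 and 3041 at ZT12 and 3135, 2899 and 2469 at ZT36. The evening mean was 218.1 times the dawn mean, with no overlap of libraries. The difference was 7.87 ± 0.23 (SE, limma adjusted p = 4.81e-12) and 7.40 ± 0.23 after rescaling. GLYMA10G39740 followed, with 4.76, 5.27 and 6.37 FPKM at ZT0 and 18.6, 21.3 and 18.6 at ZT24. In the evening it stood at 2937, 3119 and 2831 FPKM at ZT12 and at 2035, 2016 and 1853 at ZT36. Its difference was 7.72 ± 0.32 (SE, limma adjusted p = 1.36e-10) and 7.25 ± 0.32 after rescaling. Both evening identifiers were higher at ZT24 than at ZT0 in every library.

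The naming rule took 15 identifiers per direction, with at least 10 FPKM in the higher group and no overlap of libraries on either scale. Their differences ran from -6.14 to -4.53 for dawn and from 5.95 to 7.87 for the evening, with limma adjusted p-values of 5.46e-09 or less. After rescaling all 30 passed the test, with ranges of -6.52 to -4.91 and 5.53 to 7.40.

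Some genes were close to absent in 1 of the groups. With under 1 FPKM in all 6 evening libraries and at least 10 FPKM in all 6 dawn libraries there were 12 genes, and in the opposite direction there were 35. After rescaling these counts were 14 and 24. None of them (0) was listed at exactly 0 in all 6 libraries of the lower group.

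Measured in FPKM rather than in fold, other identifiers led. They were picked by the size of the FPKM change, a rule chosen after the values were seen. GLYMA11G34230 fell most. It was among the most abundant transcripts at dawn, with 11080, 10334 and 10878 FPKM at ZT0 and 10645, 10700.0 and 11593 at ZT24. In the evening it was at 138, 164 and 180.1 FPKM at ZT12 and at 492, 522 and 667 at ZT36. From dawn to evening it fell by 10511 FPKM, which was 5.51% of the summed fall. Its difference was -5.18 ± 0.26 (SE, limma adjusted p = 8.71e-10).

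GLYMA19G06370, the second largest fall, differed less in fold. It had 28945, 27716 and 30177 FPKM at ZT0 and 28993, 21417 and 27059 at ZT24, against 16543, 22376 and 17120 at ZT12 and 14116, 14877 and 18593 at ZT36. As deposited dawn and evening overlapped, since ZT24 replicate 2 lay below ZT12 replicate 2. After rescaling these libraries stood at 23247 and 18888, and the groups did not overlap. The difference was -0.67 ± 0.11 (SE, limma adjusted p = 7.03e-05) as deposited and -1.16 ± 0.17 (adjusted p = 5.37e-05) after rescaling, which is over 2-fold. The call was lost in the limma fit over 36 libraries (adjusted p = 0.633) and without the filter on low values (adjusted p = 0.19). It is listed at 0 in ZT44 replicates 2 and 3, beside 24210 FPKM in replicate 1, and the limma fit over 33 libraries, without these and ZT40 replicate 2, kept the call (adjusted p = 3.95e-06). Its adjusted p over all alternatives ran from 3.95e-06 to 1. GLYMA16G05350 had the largest rise, with 42.8, 38.9 and 43.8 FPKM at ZT0 and 119, 138 and 139 at ZT24, against 5469, 5284 and 6347 at ZT12 and 7989, 7212 and 6170 at ZT36. It gained 6325 FPKM, with a difference of 6.40 ± 0.20 (SE, limma adjusted p = 8.38e-12). The second largest rise was that of GLYMA19G27530, described above.

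**Figure D3:**
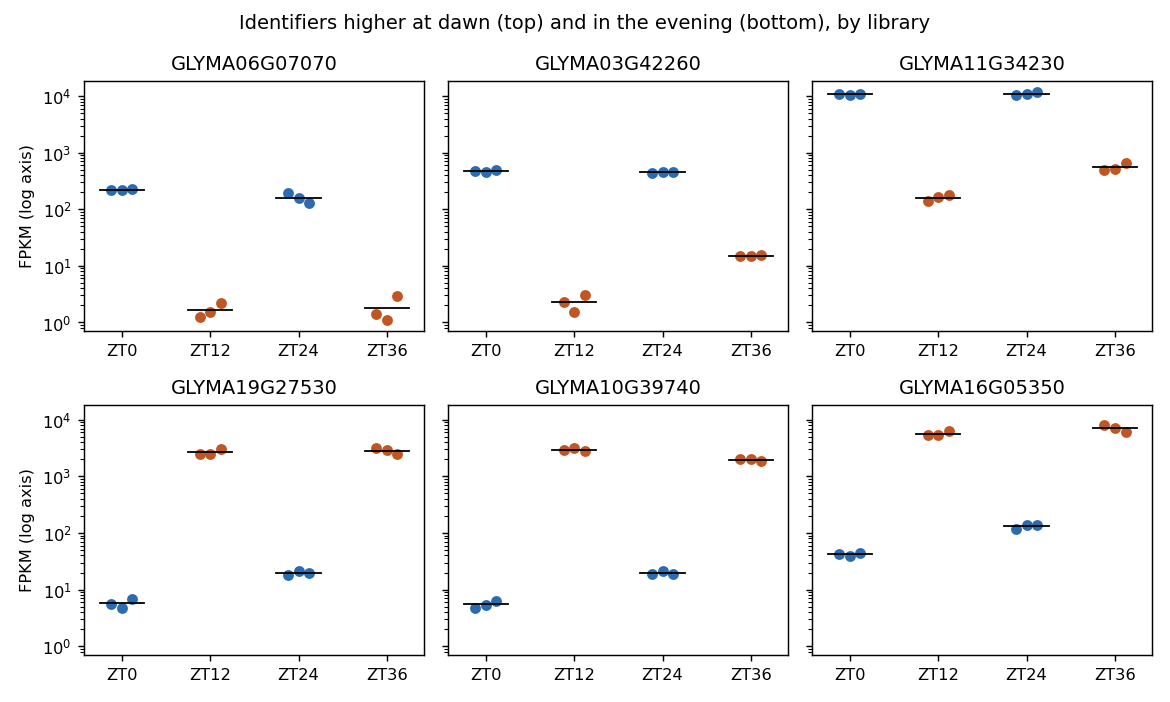
FPKM on a logarithmic axis in the 12 libraries for 3 identifiers higher at dawn (top row) and 3 higher in the evening (bottom row). Points are libraries, dawn in blue and evening in orange, and lines are means of 3. GLYMA03G42260 and GLYMA11G34230 were higher at ZT36 than at ZT12, and the 3 evening identifiers were higher at ZT24 than at ZT0.

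The other 24 libraries did not enter the test and show how the sets passed between the compared times. For each library the median over the set of the deviation from each gene's own mean was taken. The dawn set fell from 0.78 ± 0.02 (SD, n = 3) at ZT0 to 0.27 ± 0.01 at ZT4, -0.50 ± 0.04 at ZT8 and -0.98 ± 0.05 at ZT12. It then rose to -0.18 ± 0.08 at ZT16 and 0.75 ± 0.04 at ZT20, where it had already reached its level of ZT24 (0.71 ± 0.02). The evening set rose from -1.06 ± 0.05 at ZT0 to -0.45 ± 0.01 at ZT4, 0.46 ± 0.07 at ZT8 and 0.97 ± 0.03 at ZT12, and fell to 0.39 ± 0.06 at ZT16 and -0.71 ± 0.03 at ZT20. In the second cycle the extremes again fell at the compared times, but the order of the times between them differed as deposited. The dawn set was higher at ZT16 (-0.18) than at ZT8 (-0.50) and lower at ZT40 (-0.35) than at ZT32 (-0.28). The evening set was lower at ZT16 (0.39) than at ZT8 (0.46) and higher at ZT40 (0.60) than at ZT32 (0.39). After rescaling the evening set was lower at the later time in both cycles (0.17 against 0.55, and 0.35 against 0.42). The rescaled dawn set was nearly level in the first cycle, at -0.42 ± 0.11 at ZT16 and -0.44 ± 0.06 at ZT8. In the second cycle it was lower at the later time, at -0.60 ± 0.09 at ZT40 against -0.27 ± 0.06 at ZT32. The median of all tested genes moved between -0.22 and 0.25 over the 12 time points as deposited and by at most 0.01 after rescaling.

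In the first cycle the dawn set was near its dawn level by ZT20. At ZT20 the median gene of the dawn set had covered 100.0% (quartiles 88.2% and 113.0%) of its change from ZT12 to ZT24 on the log2 scale, and 91.6% (81.5% and 102.0%) after rescaling. At ZT44, the same time of the second cycle, the set stood lower, at 0.45 ± 0.01 (SD, n = 3) as deposited and 0.36 ± 0.08 after rescaling, against 0.75 and 0.77 at ZT20. No later dawn was sampled. After ZT0 the set left its level slowly, with 27.5% of the change from ZT0 to ZT12 made by ZT4 (21.7% after rescaling) and 72.9% by ZT8 (65.8%). The evening set had made 28.6% of its rise by ZT4 and 75.1% by ZT8, and 39.0% and 87.4% after rescaling. It had lost 31.2% of the evening excess by ZT16 and 89.4% by ZT20, and 39.5% and 96.0% after rescaling. The dawn set had made 48.4% of its change by ZT16 (38.7% after rescaling), so in both sets the largest 4 h step on the way from evening to dawn was that from ZT16 to ZT20.

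The compared times were near the extremes of most genes in the sets, but not of all. Averaged over both days, 717 of the 1378 dawn genes (52.0%) were highest at ZT0, 443 (32.1%) at ZT20 and 188 (13.6%) at ZT4. After rescaling 1014 (73.6%) were highest at ZT0, 161 (11.7%) at ZT20 and 196 (14.2%) at ZT4. Of the 1399 evening genes 1022 (73.1%) were highest at ZT12, 196 (14.0%) at ZT8 and 178 (12.7%) at ZT16. After rescaling the earlier neighbour gained, with 855 (61.1%) at ZT12, 386 (27.6%) at ZT8 and 152 (10.9%) at ZT16. The rule keeps a set from being highest at the opposite time. Of all tested genes 12.1% were highest at ZT20 and 4.4% at ZT4 as deposited, and 14.7% and 18.0% after rescaling. The dawn set thus leaned to the same neighbour as all tested genes on both scales. At ZT8 and ZT16 the shares of all tested genes were 7.91% and 38.4%, and 14.9% and 15.8% after rescaling. These leaned to ZT16, whereas the evening set leaned to ZT8.

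**Figure D4:**
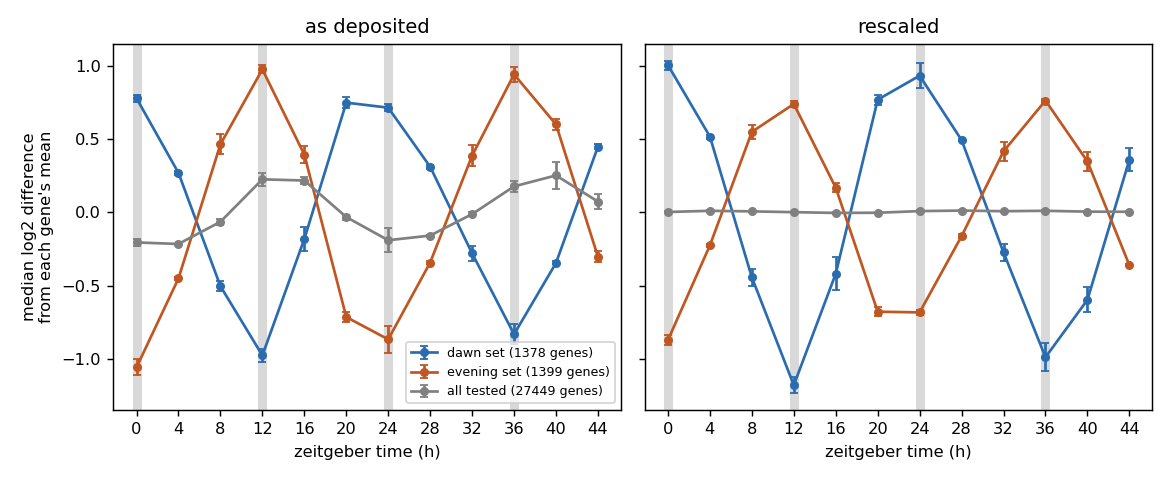
Median over the dawn set (blue), the evening set (orange) and all tested genes (grey) of the log2 difference from each gene's mean, against zeitgeber time in h, as deposited (left) and rescaled (right). Points are means and bars the SD of 3 libraries, and grey bands mark the 4 compared times. The dawn set is at 0.75 at ZT20 and 0.27 at ZT4 as deposited.

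A comparison 12 h apart can miss genes whose extremes fall between the compared times. Of the 1467 genes called on neither scale, 350 still varied at least 2-fold between the 6 times of day as deposited, and 58 at least 4-fold. The share of all tested genes that varied this much is not given here. Not all are such cases, since 10 of the 350 were highest at ZT0 and 18 at ZT12. Genes with opposite differences on the 2 days or with scattered replicates can fall in this group too. Of these 58 genes, 22 were highest at ZT16, 19 at ZT8, 11 at ZT20 and 5 at ZT4. Of all tested genes, whatever their range, 38.4% were highest at ZT16, 7.91% at ZT8, 12.1% at ZT20 and 4.4% at ZT4. After rescaling 57 genes varied 4-fold, with 18 highest at ZT4, 16 at ZT16, 12 at ZT8 and 9 at ZT20. For all tested genes the rescaled shares were 18.0% at ZT4, 15.8% at ZT16, 14.9% at ZT8 and 14.7% at ZT20. Without a share of all genes that vary this much, the counts only describe this group.

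The contrast was repeated on 2 days with separate libraries, and the direction recurred. On the first day alone 3871 genes (14.1%) were higher at dawn and 17618 (64.2%) in the evening, and on the second day 3816 (13.9%) and 16434 (59.9%). Called on both days were 3039 dawn genes and 15220 evening genes, and 115 genes were called in opposite directions. After rescaling the first day gave 8002 (29.2%) and 7896 (28.8%), the second 7404 (27%) and 6944 (25.3%), and 79 genes were opposed. The differences of the 2 days had the same sign for 90.8% of tested genes and a Pearson's r of 0.918 across genes (83.8% and 0.919 after rescaling). The 2 days share no library, and genes are not independent replicates.

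**Figure D5:**
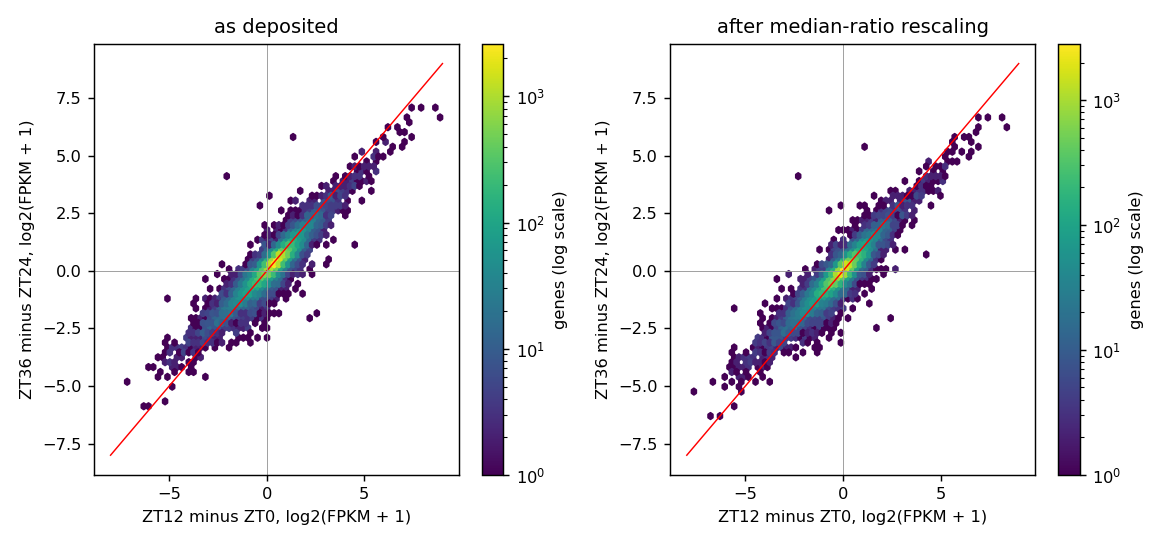
The difference on the second day (ZT36 minus ZT24) against that on the first day (ZT12 minus ZT0) for 27449 genes on the log2(FPKM + 1) scale, as deposited (left) and rescaled (right). Colour gives the number of genes per hexagon on a log scale and the red line marks equal differences. At both ends of the cloud most genes lie nearer to 0 on the second day than the red line.

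The difference was somewhat smaller on the second day. The median of the dawn set was -1.67 on the first and -1.51 on the second day, and that of the evening set 1.95 and 1.78. It was smaller on the second day for 973 of 1378 dawn genes (70.6%) and 1020 of 1399 evening genes (72.9%), beside 63.5% of all tested genes. After rescaling it was smaller for 1034 dawn genes, for 937 evening genes (67.0%) and for 58.8% of all tested genes. The median ratio of the second to the first day was 0.866 in the dawn set and 0.902 in the evening set. Over all tested genes it was 0.829, but this is not a like comparison. The sets were chosen for a large difference over both days, and all tested genes include small differences of opposite sign. The sign was the same on both days for 24920 of the 27449 tested genes, 1377 dawn genes and 1399 evening genes. No trait of the sets can be read from the ratios. After rescaling the median ratio was 0.867 and 0.916 in the sets and 0.775 over all tested genes.

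Within both sets the days differed more on the low side than on the high side. The dawn set at its low point was higher on the second day, with a median of 0.21 from ZT12 to ZT36 and 66.8% of its genes higher at ZT36. At its high point it differed by -0.02 from ZT0 to ZT24, with 46.3% of its genes higher at ZT24. For the evening set the low point was higher by a median of 0.19 at ZT24 than at ZT0, with 74.3% of its genes higher at ZT24, and the high point differed by -0.05, with 44.8% higher at ZT36. Of all tested genes 54.7% were higher at ZT24 than at ZT0 and 43.6% higher at ZT36 than at ZT12. By library, the dawn set at ZT12 lay between -1.01 and -0.92 and at ZT36 between -0.87 and -0.76. The evening set at ZT0 lay between -1.09 and -0.996 and at ZT24 between -0.96 and -0.78, so the libraries of the days did not overlap in either case. On the high side the dawn set did not overlap as deposited either, with 0.75 to 0.79 at ZT0 and 0.69 to 0.74 at ZT24, but it did after rescaling. The high side of the evening set overlapped between the days on both scales. After rescaling the medians of the low side were 0.25 for the dawn set and 0.20 for the evening set, and those of the high side -0.03 and 0.01. Among the 15 named dawn identifiers 14 had a higher mean at ZT36 than at ZT12 and 8 a higher mean at ZT24 than at ZT0. Among the 15 named evening identifiers 15 were higher at ZT24 than at ZT0 and 8 higher at ZT36 than at ZT12. These are counts and medians over genes chosen for their size, with no test of the set. The second day differs from the first in the age of the plants and in the time without light cycles, and these cannot be told apart.

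Tested gene by gene, the difference itself changed between the days for 1833 genes (6.68%), and for 1578 (5.75%) after rescaling, of which 1361 were called on both scales with the same sign. It was larger on the first day for 1423 of the 1833 and larger on the second for 410. In the dawn set 401 genes (29.1%) and in the evening set 257 (18.4%) were among them. The sets were chosen for large differences, and whether size accounts for these shares was not tested. Here limma tested the interaction of time and day. Its count depended on single libraries: it was 2949 without ZT24 replicate 3 and lay between 1034 and 1190 without ZT0 replicate 1 or 3, ZT12 replicate 1 or 2, ZT24 replicate 1, or ZT36 replicate 1 or 2.

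GLYMA10G39740 and GLYMA06G42080 had the smallest p-values among the genes with the larger difference on the first day. The evening level of GLYMA10G39740 was 541.9 times the dawn level on the first day and 100.9 times on the second. Its difference was 8.85 and then 6.59, a change of -2.26 ± 0.13 (SE, limma adjusted p = 6.87e-06). GLYMA06G42080 stood at 4.01, 4.26 and 3.72 FPKM at ZT0 and 23.6, 22.8 and 18.7 at ZT12, then at 10.5, 11.0 and 10.4 at ZT24 and 12.3, 11.5 and 10.8 at ZT36. Its evening excess was clear on the first day, while on the second the libraries of both times overlapped as deposited. After rescaling they did not, with 11.9 to 13.2 at ZT24 and 9.59 to 10.4 at ZT36. The change was -2.07 ± 0.13 (SE, limma adjusted p = 6.87e-06). On the second day alone the sign depended on the scale, with 0.11 as deposited (limma adjusted p = 0.285) and -0.30 after rescaling (adjusted p = 0.00858), where dawn was the higher time. Its highest mean of the first cycle was at ZT16, at 34.2 ± 2.06 FPKM (SD, n = 3).

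GLYMA13G28860 and GLYMA08G04880 led the genes with the larger difference on the second day. On the first day GLYMA13G28860 did not separate the times as deposited. It had 4.96, 5.90 and 5.62 FPKM at ZT0 and 5.78, 6.18 and 7.06 at ZT12. After rescaling these libraries did not overlap, with 5.89 to 6.76 at ZT0 and 4.56 to 5.80 at ZT12. The first-day difference was 0.18 as deposited (limma adjusted p = 0.155) and -0.27 after rescaling (adjusted p = 0.0973). Its highest mean of the first cycle was at ZT8, at 15.7 ± 2.20 FPKM (SD, n = 3). On the second day it was at 12.4, 11.5 and 15.1 FPKM at ZT24 and at 3.03, 2.51 and 3.02 at ZT36, with no overlap. The change was -2.03 ± 0.15 (SE, limma adjusted p = 4.14e-05). GLYMA08G04880 was low on the first day, at 0.332, 0.444 and 0.651 FPKM at ZT0 and 2.62, 2.17 and 4.63 at ZT12. On the second day it rose from 2.78, 3.52 and 2.93 FPKM at ZT24 to 288, 342 and 135 at ZT36. Its evening level was 6.60 times the dawn level on the first day and 82.7 times on the second. The change was 4.42 ± 0.41 (SE, limma adjusted p = 0.000109). The highest mean of its first cycle, 23.4 ± 9.61 FPKM (SD, n = 3), was at ZT20, below each of the ZT36 libraries.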

How the data were processed

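Illumina libraries were made from total RNA, per the labels, which do not state RNA selection, strand or read length. The authors deposited 1 table of FPKM values for 47011 identifiers in 36 columns, each matched to 1 sample by its title. Per the submitters' processing notes, TopHat2 2.1.0 and HTSeq 0.6.0 were among the tools. Genome build, annotation and FPKM program were not given in the sources used here. FPKM are not counts, so no count model was used. Summed FPKM ran from 669345 to 705875 over the 12 libraries and is no depth. Of the nonzero values of 7313 low genes, 79.9% lay on whole steps (tolerance 0.06 of a step), and a step was worth 0.0258 FPKM in the median gene. No counting interval is given.

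log2(FPKM + 1) was tested with limma 3.58.1 (R 4.3.3, trended prior variance) on 12 libraries, with day as covariate, or with the interaction of time and day. On simulated data for 27449 genes, 73 of 100 genes changed by 0.5 on the log2 scale and 100 of 100 changed 2-fold were recovered for dawn against evening, with 12 false calls. For the difference between days 153 of 200 genes changed 2-fold were recovered, with 8 false calls. The simulation changed only these genes and shifted no whole library, whereas most genes differed in the deposited data. Its rates therefore need not hold there. The naming rule took the 15 largest differences per direction, with at least 10 FPKM in the higher group, the same sign on both days and no overlap on either scale, and the 10 smallest p-values per direction for the days. The gene lists planned by function and the tissue markers could not be resolved from the identifiers and were not used. The leaf label was therefore not checked against markers. The comparison, the lists and the rules were chosen with earlier results of these data known. Replicates with the same number at different times were not taken as pairs.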

Additional observations from a re-analysis of the deposited data

Results flagged for a closer look

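The difference between dawn and evening itself differed between the days for 1833 genes by limma's interaction test, and this is listed because the days disagreed. The named cases were GLYMA10G39740 (second minus first day -2.26, log2), GLYMA06G42080 (-2.07), GLYMA13G28860 (-2.03) and GLYMA08G04880 (4.42), with adjusted p-values from 6.87e-06 to 0.000109. For these 4 the call and sign held in all 22 alternatives each. Groups of 3 libraries are too small for a test of single outlying libraries.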

How the results depend on the processing

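With quantile normalization 7906 genes were higher at dawn and 9885 in the evening, with 1544 evening genes at 2-fold. Median-ratio rescaling gave 8849 and 8877, with 2332 and 1399 at 2-fold, and the median gene then differed by -0.0042 (exact permutation p = 0.09), since rescaling centres it by construction. With a pseudocount of 0.1, 4650 evening genes passed 2-fold, and with 5 there were 842 dawn and 1221 evening genes. A filter at 5 FPKM left 15627 genes and gave 2744 dawn and 10762 evening calls, with 2059 evening genes at 2-fold, since fewer genes were tested. The median gene and the share of the 20 highest genes kept sign and p without any single library (0.385 to 0.433, and -7.46 to -6.83 points).

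Without any single library the dawn calls ran from 4045 to 4278 and the evening calls from 18072 to 18688, at 2-fold from 1354 to 1416 and 2961 to 3336. Leaving out libraries on the rescaled scale, which was added after seeing the data, they ran from 8496 to 8749 and 8408 to 8735, at 2-fold from 2272 to 2393 and 1364 to 1461. The difference between days ran from 1034 to 2949, and from 954 to 2330 after rescaling, and the cause was not tested. The fit without the 3 libraries of ZT40 and ZT44 that stand apart, also chosen after seeing the data, gave 2088 genes for it.

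Whether libraries with the same replicate number are pairs was not tested. Of 18 same-numbered pairs 5 had a correlation of deviations over 0.1 (range -0.202 to 0.326). Differently numbered pairs at different times ran from -0.383 to 0.185. Several of them were over 0.1 too, such as 0.182 and 0.168, so passing 0.1 does not mark a pair. The highest between different times were those of ZT0 with ZT24, at 0.326 for replicate 2 and 0.315 for replicate 3. Of 12 libraries 7 correlated best with their own number, and the count that unpaired libraries would give was not worked out. With the number as a replicate block 4150 genes were higher at dawn, 18401 in the evening, and 1524 differed between days. With the replicate block and rescaling 8718 genes were higher at dawn and 8692 in the evening, 2331 and 1402 at 2-fold. GLYMA19G06370 lost its limma call with quantile normalization (adjusted p = 1), and without a filter and over 36 libraries, where its difference stayed at -0.67. It was the highest gene in 12 of 12 libraries, which quantile normalization sets equal by construction. The call over 36 libraries returned without the 3 libraries that stand apart (adjusted p = 3.95e-06), and the gene is listed at 0 in 2 of them. The cause without a filter was not tested. The other named identifiers kept sign and call in all alternatives.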

Other observations

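Identifiers of this form carry a chromosome number and a number along it. By that order, the next tested gene was also in the dawn set for 133 of 1378 dawn genes (9.65%), where 5.02% of all tested genes with such a number belong to it. For the evening set the next gene was in the same set for 158 of 1398 genes (11.3%, against 5.1%). The next gene was in the opposite set for 3.63% of dawn and 4.08% of evening genes. The dawn set took between 2.5% and 6.08% of the tested genes of each of the 20 chromosome numbers and the evening set between 3.41% and 6.01%. Neighbouring genes can be copies of one another that share reads, which was not tested.

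Without the 3 libraries that stand apart, the dawn set was at -0.34 at ZT40 (2 libraries) and 0.43 at ZT44 (1 library), against -0.35 and 0.45 with them.

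The 12 libraries were also searched for genes listed at 0 in 1 library while both other replicates were at 10 FPKM or more. Each library had between 0 and 2 such genes.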
